A study of Mus musculus with 9 samples.

Results

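Keratins are the filament proteins of epithelial cells. Type I and type II keratins pair to form the filaments that join cells to each other at desmosomes and to the basement membrane at hemidesmosomes, and an epithelial cell changes its keratins as it matures. In the thymus, the organ in which T cells develop, Krt8 and Krt18 are textbook keratins of the cortical epithelium, Krt5 and Krt14 of the medullary epithelium and of cells at the border of cortex and medulla, and Krt10 marks the terminally differentiated, keratinising cells of the medulla.

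The keratin gene family was followed in the CD45-depleted stroma of the mouse thymus before and after radiation damage. Members were the genes whose symbol is Krt followed by a number, read by a probe set that names no other gene, with the brightest probe set of a gene (highest mean over the 9 arrays) standing for it. This gave 48 keratins, read by 61 probe sets, of the 18193 genes on the array, with 24 of the 48 on chromosome 11 and 24 on chromosome 15. A further probe set that names both Krt17 and Krt14 was left out. Of the 48 keratins, 17 reached a log2 value of 4 on at least 3 arrays and were tested with the 10937 genes that did so, and 31 did not. Grouped by where they are known to be made, 2 of 3 basal keratins, 5 of 5 keratins of simple epithelium, 4 of 11 keratins of differentiated epithelium, 3 of 4 keratins of activated epithelium, 0 of 20 hair keratins and 3 of 5 others passed that filter.

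All animals were female C57BL/6J mice of 6 to 8 weeks. One group of mice was untreated, and the others were taken 4 or 7 days after SL-TBI at 550 cGy (read here as sublethal total body irradiation), with 3 arrays per group. Hematopoietic cells were depleted with magnetic beads against CD45, the thymi of several mice were pooled for a sample, and RNA was hybridised to an Affymetrix mouse whole-genome array, a 1-colour array read near the 3′ end of transcripts. The protocol calls the pooled cells ECs without explaining the term, and it is not stated if each array had its own pool of mice. The spread behind every p-value may therefore be technical.

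Values were log2 signals normalized by the authors with GCRMA, and 42.1% to 44.2% of the probe sets of an array lay at or above 4. Adjusted p-values come from 1 limma model over all 9 arrays, adjusted by Benjamini-Hochberg over the 10937 genes, with a threshold of 0.05. Each difference is one of group means (log2, ± standard error), and levels of different probe sets were not set against each other. Both comparisons against untreated mice share the same 3 untreated arrays. The samples were not free of blood cells: Ptprc, the gene of CD45, averaged 12.22 ± 0.25 in untreated samples, 4.64 ± 0.53 at day 4 and 9.51 ± 0.22 at day 7 (SD, n = 3 each), and the mean log2 value over 9 thymocyte genes was 9.66 to 9.97, 3.44 to 3.86 and 7.30 to 7.47 (untreated, day 4, day 7). Mean values over 8 fibroblast genes were 10.64 to 11.05 in untreated samples, 11.42 to 11.83 at day 4 and 11.26 to 11.60 at day 7. Endothelial genes, of which 7 were tested, averaged 4.13 to 6.05, 4.97 to 5.78 and 7.40 to 7.52. The part of these shifts in the keratin differences was not tested, and in such bulk samples fewer cells of a type and less RNA per cell cannot be told apart.

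The upstream regions of 4 keratins are shown because these genes carry the contrast described next: Krt5 and Krt10 moved in opposite directions, and Krt8 and Krt18, the pair of simple epithelium, lie next to each other on chromosome 15. Each is the run of 250 bases before the annotated start, 5′ to 3′ on the gene's own strand, taken from RefSeq (GRCm38.p6). Capitals mark matches to 4 motifs searched on both strands: the TATA box, spelled TATAAA, the GC box, spelled GGGCGG, the AP-2 motif, spelled GCCNNNGGC, and the AP-1 motif, spelled TGANTCA.
Krt5, chr15:101712906-101713155, minus strand: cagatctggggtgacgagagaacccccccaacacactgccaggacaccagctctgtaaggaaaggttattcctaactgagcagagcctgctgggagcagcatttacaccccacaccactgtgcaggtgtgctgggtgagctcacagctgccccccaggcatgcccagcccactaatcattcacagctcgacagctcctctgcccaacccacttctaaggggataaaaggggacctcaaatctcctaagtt
Krt10, chr11:99389365-99389614, minus strand: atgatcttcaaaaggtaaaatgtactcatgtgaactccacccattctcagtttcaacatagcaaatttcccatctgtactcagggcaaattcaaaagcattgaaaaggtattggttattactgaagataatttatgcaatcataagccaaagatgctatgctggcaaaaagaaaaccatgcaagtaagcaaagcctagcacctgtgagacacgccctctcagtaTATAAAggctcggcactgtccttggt
Krt8, chr15:102004343-102004592, minus strand: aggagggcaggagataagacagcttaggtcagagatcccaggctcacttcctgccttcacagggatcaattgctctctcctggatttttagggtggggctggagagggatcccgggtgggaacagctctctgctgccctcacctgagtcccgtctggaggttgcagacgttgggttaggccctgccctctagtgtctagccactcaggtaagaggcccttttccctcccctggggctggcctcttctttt
Krt18, chr15:102027966-102028215, plus strand: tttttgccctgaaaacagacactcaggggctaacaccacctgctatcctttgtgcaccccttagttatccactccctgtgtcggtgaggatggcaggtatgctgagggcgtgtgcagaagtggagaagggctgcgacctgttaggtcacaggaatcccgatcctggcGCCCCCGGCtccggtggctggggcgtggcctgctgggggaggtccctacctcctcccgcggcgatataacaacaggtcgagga
In Krt10, TATAAA stood 26 to 21 bases before the start, and 12.4% of 32851 promoter windows of this length held that motif. Krt18 held 1 GCCNNNGGC match, a motif found in 13.7% of windows, and neither the Krt5 nor the Krt8 window matched any of the 4 motifs. An entry was available for 12 of the 17 tested keratins. The Krt14 entry starts inside the gene, so its window does not stand for the Krt14 promoter and is not shown. Among the other entries, Krt20 held a TATAAA match, Krt42 held 2 GCCNNNGGC matches, and Krt7 held 4 GGGCGG and 2 GCCNNNGGC matches. GGGCGG was present in 32.7% and TGANTCA in 6.75% of windows. A match describes the letters in the window and not a site of binding.

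Irradiation was followed by a divided change in the keratins. By day 4, 4 of the 17 tested keratins were higher than in untreated samples (Krt5, Krt8, Krt18 and Krt19) and 4 were lower (Krt10, Krt14, Krt16 and Krt77). The limma model called 63.2% of all tested genes in this comparison, 41.8% higher and 21.4% lower, so a called share of 8 in 17 was no larger than the background. The median difference was -0.40 over the keratins and 0.20 over all tested genes. In 9 of the 17 keratins the values of the day 4 and untreated arrays did not overlap, which held for 67.7% of all tested genes.

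At day 7, the same 4 keratins were higher and 10 were lower, against a background of 54.1% called, 32.1% higher and 22.0% lower. The 10 lower keratins were Krt14, Krt20, Krt10, Krt77, Krt79, Krt78, Krt16, Krt17, Krt6a and Krt23, and Krt7, Krt42 and Krt88 did not pass the test. Their median difference from untreated samples was -0.99, against 0.09 for all tested genes. The arrays of the 2 groups did not overlap in 14 of 17 keratins, and in 62.4% of all tested genes. Between day 7 and day 4, Krt8 was higher and Krt5 and Krt23 were lower, where 27.3% of all tested genes were called, 9.78% higher and 17.6% lower. In that comparison 10 of 17 keratins did not overlap, against 51.7% of all tested genes, and the median difference was -0.32, against -0.10.

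**Figure D1:**
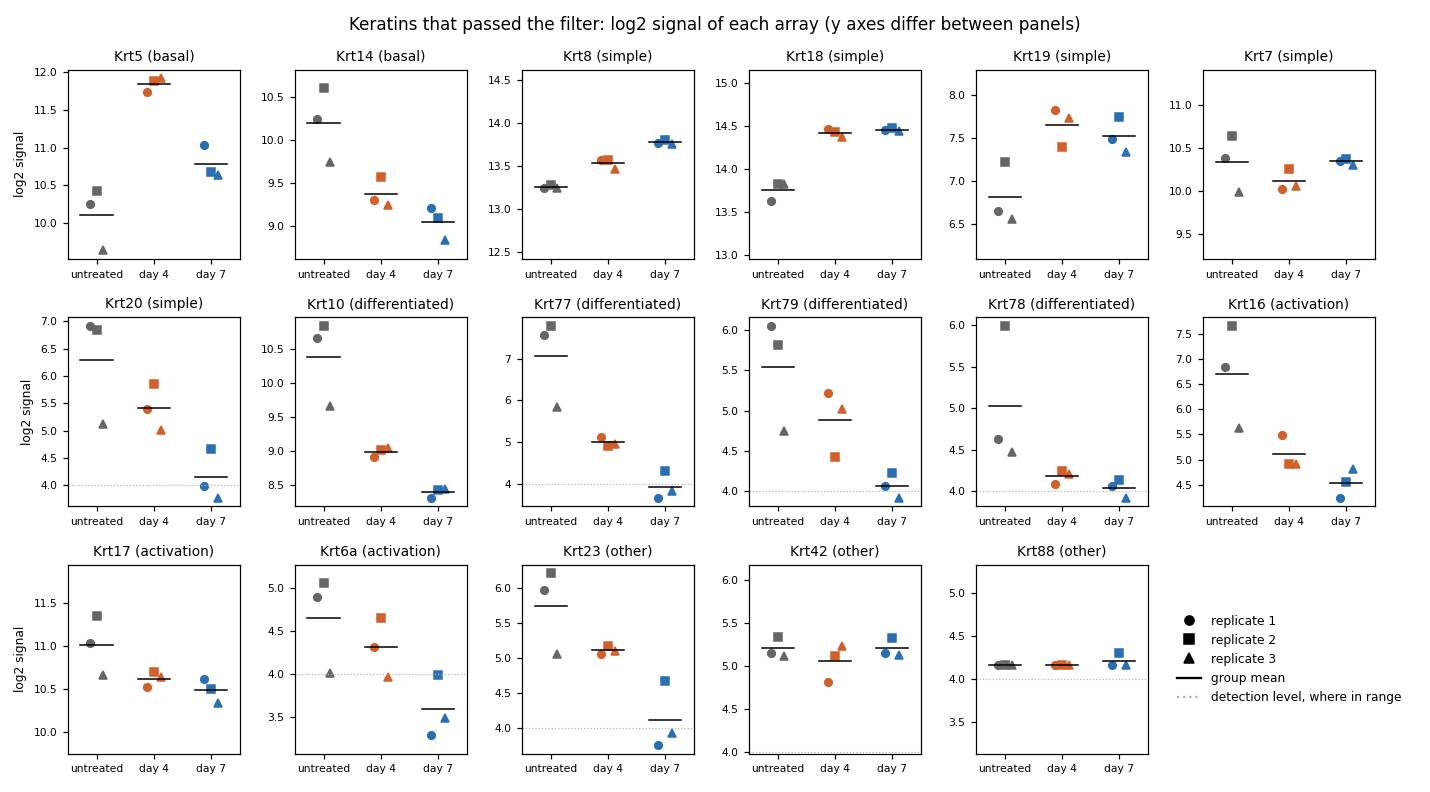
Log2 signal (y axis, scale differs between panels) of the 17 keratins that passed the filter, by group on the x axis. Points are single arrays with the marker giving the replicate, horizontal lines are group means and the dotted line is the detection level of 4 where it falls in range; Krt5 peaks at day 4, whereas Krt10 and Krt77 are lower at day 4 and day 7 than on every untreated array.

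The basal keratins moved apart. Krt5 encodes the type II keratin of basal cells, which pairs with Krt14. Its log2 values were 10.25, 10.43 and 9.64 in untreated samples, 11.73, 11.88 and 11.92 at day 4, and 11.04, 10.67 and 10.64 at day 7. Every irradiated array lay above every untreated array, and every day 4 array above every day 7 array. Krt5 was 3.34-fold higher at day 4 (difference 1.74 ± 0.20, adjusted p = 8.75e-05) and 1.60-fold higher at day 7 (0.68 ± 0.20, adjusted p = 0.0182), and it was 2.09-fold lower at day 7 than at day 4 (-1.06 ± 0.20, adjusted p = 0.00578). Its day 7 call did not hold with day 7 replicate 1 left out (0.55, adjusted p = 0.0669) or with no filter on dim genes (adjusted p = 0.0603), and the call of day 7 against day 4 did not hold with arrays centred on other epithelial genes (-0.45, adjusted p = 0.0724).

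Krt14, the type I partner of Krt5, went the other way. It read 10.25, 10.60 and 9.74 in untreated samples, 9.30, 9.57 and 9.25 at day 4, and 9.21, 9.10 and 8.84 at day 7. No irradiated array reached the lowest untreated array. Krt14 was 1.77-fold lower at day 4 (-0.82 ± 0.21, adjusted p = 0.00716) and 2.22-fold lower at day 7 (-1.15 ± 0.21, adjusted p = 0.00169). The difference between day 7 and day 4 was -0.32 ± 0.21 (adjusted p = 0.271). This Krt14 probe set is of a kind whose probes can also match related sequences. A second Krt14 probe set differed by -0.91 at day 4 and -1.02 at day 7, and the remaining one lay at the lowest value of the table. Krt15, the other basal keratin, stayed between 2.40 and 3.21 on all arrays and was not tested.

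Because both keratins were read on the same arrays, the change of Krt5 minus Krt14 can be followed array by array, relative to its mean in untreated samples. It was 0.09, -0.08 and -0.01 in untreated samples, 2.52, 2.41 and 2.76 at day 4, and 1.92, 1.67 and 1.89 at day 7. The 3 groups did not overlap, and the mean change was 2.57 at day 4 and 1.83 at day 7, with an SD of 0.08 among untreated samples. This pair was chosen after its values had been seen and is given as a description without a test.

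The keratins of simple epithelium divided into 3 that were higher after irradiation and 2 that were not. Krt8, the type II keratin of simple epithelia, read 13.24, 13.29 and 13.25 in untreated samples, 13.58, 13.57 and 13.47 at day 4, and 13.77, 13.81 and 13.76 at day 7. The groups stepped upward without overlap. The differences were small, at 1.21-fold higher at day 4 (0.28 ± 0.08, adjusted p = 0.00993) and 1.43-fold higher at day 7 (0.52 ± 0.08, adjusted p = 0.000569). This Krt8 probe set is of a kind whose probes can also match related sequences. The other Krt8 probe sets, about as bright, differed by 0.19 and 0.18 at day 4 and by 0.38 each at day 7. The median difference of all tested genes at day 4 was 0.20. At day 7 Krt8 was also 1.18-fold higher than at day 4 (0.24 ± 0.08, adjusted p = 0.0448). That last call was lost in 7 of the 9 fits that left out 1 array (all but those without untreated replicates 2 and 3), with quantile normalization (adjusted p = 0.0864) and with the replicate number as a block (adjusted p = 0.0901), and the day 4 call was lost with arrays centred on all tested genes (0.17, adjusted p = 0.0684) or on other epithelial genes, where its sign turned (-0.20, adjusted p = 0.473).

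Krt18, the type I partner of Krt8, read 13.63, 13.82 and 13.83 in untreated samples, 14.46, 14.43 and 14.37 at day 4, and 14.45, 14.48 and 14.43 at day 7. Both irradiated groups lay above all untreated arrays and overlapped each other. Krt18 was 1.58-fold higher at day 4 (0.66 ± 0.09, adjusted p = 0.000179) and 1.62-fold higher at day 7 (0.70 ± 0.09, adjusted p = 0.000246), and day 7 differed from day 4 by 0.04 ± 0.09 (adjusted p = 0.771). Centred on other epithelial genes, the day 4 difference was 0.19 (adjusted p = 0.516), and day 7 was then above day 4 (0.65, adjusted p = 0.0284).

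Krt19, a short type I keratin of simple and ductal epithelium, read 6.65, 7.23 and 6.57 in untreated samples, 7.83, 7.40 and 7.74 at day 4, and 7.49, 7.75 and 7.34 at day 7. Untreated replicate 2 came closest to the irradiated arrays, without overlap. Krt19 was 1.80-fold higher at day 4 (0.85 ± 0.20, adjusted p = 0.00467) and 1.64-fold higher at day 7 (0.71 ± 0.20, adjusted p = 0.0136). Leaving out untreated replicate 1 (0.63, adjusted p = 0.0515) or day 7 replicate 2 (0.60, adjusted p = 0.0528) ended the day 7 call, as did, for day 4, arrays centred on other epithelial genes (0.37, adjusted p = 0.198).

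Krt7, a type II keratin of glandular and ductal epithelium, read 10.39, 10.64 and 9.98 in untreated samples, 10.03, 10.26 and 10.06 at day 4, and 10.35, 10.37 and 10.31 at day 7. The untreated range spanned both irradiated groups, and day 7 lay above day 4 without overlap. Its differences were -0.22 ± 0.15 at day 4 (adjusted p = 0.239) and 0.01 ± 0.15 at day 7 (adjusted p = 0.972). Day 7 against day 4 gave 0.23 ± 0.15 (adjusted p = 0.300). Without untreated replicate 3 it was called lower at day 4 (-0.40, adjusted p = 0.0168).

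Krt20, a type I keratin of gut and urinary epithelium, fell instead. It read 6.92, 6.84 and 5.12 in untreated samples, 5.40, 5.85 and 5.01 at day 4, and 3.99, 4.67 and 3.78 at day 7. Untreated replicate 3 sat within the day 4 range, and every day 7 array lay below every other array. Krt20 was 4.42-fold lower at day 7 (-2.14 ± 0.47, adjusted p = 0.00452). Its day 4 difference of -0.87 ± 0.47 did not pass the test (adjusted p = 0.132), but did without untreated replicate 3 (-1.46, adjusted p = 0.00336), as did the day 7 against day 4 difference of -1.27 ± 0.47 (adjusted p = 0.0737 with and 0.00904 without that array).

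The keratins of differentiated epithelium were the group with the lowest median, at -1.13 for day 4 and -1.74 for day 7, compared with 0.28 and 0.52 for the simple keratins and -0.40 and -1.06 for those of activated epithelium. At day 7 all 4 that passed the filter were lower than in untreated samples, and at day 4 Krt10 and Krt77 were. Only keratins bright in at least one group could pass the filter, so these counts and medians do not stand for the 11 keratins of the class.

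Krt10, the type I keratin that replaces Krt14 when cells leave the basal layer, read 10.67, 10.84 and 9.66 in untreated samples, 8.91, 9.0 and 9.04 at day 4, and 8.31, 8.42 and 8.44 at day 7. The groups stepped downward without overlap, with the irradiated arrays tightly grouped and untreated replicate 3 a full unit below the other untreated arrays. Krt10 was 2.64-fold lower at day 4 (-1.40 ± 0.26, adjusted p = 0.00141) and 4.00-fold lower at day 7 (-2.0 ± 0.26, adjusted p = 0.000337). Day 7 against day 4 gave -0.60 ± 0.26 (adjusted p = 0.119), which passed without untreated replicate 3 (adjusted p = 0.00203), an array that enters this comparison through the shared estimate of the spread alone.

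Krt77, a type II keratin of suprabasal epidermis, had the lowest day 7 difference of the 17. It read 7.57, 7.78 and 5.83 in untreated samples, 5.12, 4.92 and 4.97 at day 4, and 3.68, 4.30 and 3.83 at day 7. Again the groups did not overlap, and 2 of 3 day 7 arrays were below the detection level. Krt77 was 4.17-fold lower at day 4 (-2.06 ± 0.44, adjusted p = 0.00309) and 8.73-fold lower at day 7 (-3.13 ± 0.44, adjusted p = 0.000491). Day 7 against day 4 gave -1.07 ± 0.44 (adjusted p = 0.102, and 0.00231 without untreated replicate 3).

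Krt79, a type II keratin known from hair follicle ducts and sebaceous glands, read 6.05, 5.82 and 4.75 in untreated samples, 5.22, 4.42 and 5.02 at day 4, and 4.06, 4.22 and 3.92 at day 7. Day 4 overlapped the untreated range through untreated replicate 3, and day 7 lay below both. Krt79 was 2.78-fold lower at day 7 (-1.47 ± 0.33, adjusted p = 0.00486), and its day 4 difference was -0.65 ± 0.33 (adjusted p = 0.110, and -1.05 with 0.00423 without untreated replicate 3). Without that array, day 7 was also below day 4 (adjusted p = 0.0166, against 0.0920 with it).

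Krt78, a type II keratin of the upper layers of squamous epithelium, read 4.63, 5.99 and 4.48 in untreated samples, 4.09, 4.25 and 4.21 at day 4, and 4.06, 4.14 and 3.92 at day 7. The irradiated arrays lay close to the detection level, and untreated replicate 2 stood above the other untreated arrays. Krt78 was 1.99-fold lower at day 7 (-0.99 ± 0.33, adjusted p = 0.0326), a call that was lost when any day 7 array was left out (adjusted p = 0.0644 to 0.0882), with no filter (0.105) and with quantile normalization (0.0890). At day 4 its difference of -0.85 ± 0.33 was just short of the threshold (adjusted p = 0.0505), without overlap between the groups, and passed when any untreated array was left out (adjusted p = 0.0141 to 0.0384).

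**Figure D2:**
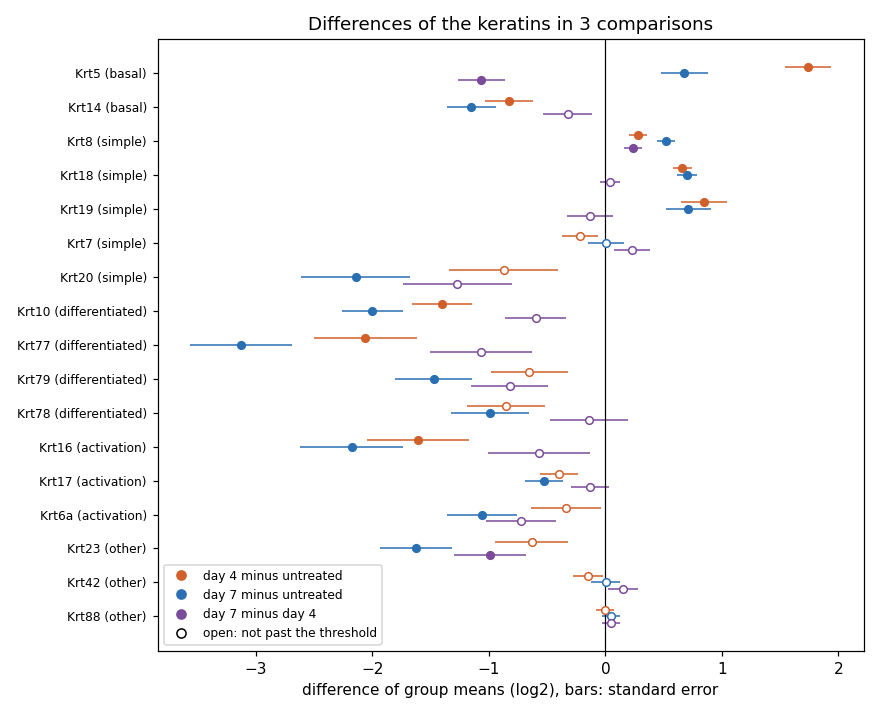
Differences of group means on the log2 scale (x axis) for the 17 tested keratins (y axis, class in brackets), with bars for the standard error. Filled points passed an adjusted p of 0.05 in the limma model and open points did not; Krt5, Krt8, Krt18 and Krt19 lie right of 0 at day 4 and day 7, and Krt77 lies farthest to the left at -3.13.

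The keratins of activated epithelium, which are switched on in wounded skin and are also made in skin appendages, did not rise in either irradiated group. Krt16, the type I member of the wound pair, read 6.84, 7.67 and 5.63 in untreated samples, 5.49, 4.91 and 4.91 at day 4, and 4.24, 4.55 and 4.81 at day 7. All irradiated arrays lay below all untreated arrays. Krt16 was 3.05-fold lower at day 4 (-1.61 ± 0.44, adjusted p = 0.0108) and 4.53-fold lower at day 7 (-2.18 ± 0.44, adjusted p = 0.00301), and day 7 differed from day 4 by -0.57 ± 0.44 (adjusted p = 0.362).

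Krt6a, its type II partner, read 4.89, 5.05 and 4.01 in untreated samples, 4.32, 4.65 and 3.96 at day 4, and 3.29, 3.99 and 3.49 at day 7. All day 7 arrays were below the detection level, so Krt6a was at least 1.57-fold lower there (adjusted p = 0.0154 for a measured difference of -1.06 ± 0.30). It was no longer called when untreated replicate 1 (-0.94, adjusted p = 0.0568) or day 7 replicate 1 (-0.91, adjusted p = 0.0567) was left out, or with no filter (adjusted p = 0.0604). At day 4 the difference was -0.34 ± 0.30 (adjusted p = 0.346), and without untreated replicate 3 it was -0.66 (adjusted p = 0.0448). The other Krt6a probe sets were dimmer, with highest values of 2.94 and 3.23, and did not show this fall. They differed by -0.0008 and 0.29 at day 4 and by -0.13 and 0.04 at day 7.

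Krt17, a type I keratin of appendages and wound edges, read 11.03, 11.35 and 10.67 in untreated samples, 10.52, 10.70 and 10.64 at day 4, and 10.62, 10.51 and 10.35 at day 7. Day 4 overlapped the untreated range and day 7 lay just below it. Krt17 was 1.44-fold lower at day 7 (-0.53 ± 0.16, adjusted p = 0.0236), and the day 4 difference was -0.40 ± 0.16 (adjusted p = 0.0606, and -0.57 with 0.00598 without untreated replicate 3). The day 7 call was lost in 4 of the 9 fits that left out 1 array (without untreated replicate 1 or 2 or day 7 replicate 2 or 3), with no filter (0.0655), with arrays centred on other epithelial genes (-0.39, 0.127) and with the mean of both Krt17 probe sets (-0.26, 0.256). The second Krt17 probe set, which was much dimmer, differed by 0.00 at day 7.

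Of the remaining tested keratins, Krt23, a type I keratin, read 5.97, 6.21 and 5.06 in untreated samples, 5.06, 5.17 and 5.10 at day 4, and 3.76, 4.67 and 3.93 at day 7. Untreated replicate 3 sat at the level of the day 4 arrays, and day 7 lay below both groups. Krt23 was 3.09-fold lower at day 7 than in untreated samples (-1.63 ± 0.31, adjusted p = 0.00232) and 1.99-fold lower than at day 4 (-0.99 ± 0.31, adjusted p = 0.0436). The call against day 4 was lost without untreated replicate 1, any day 4 array or day 7 replicate 1 or 3, and with no filter, quantile normalization or either centring. Its day 4 difference was -0.63 ± 0.31 (adjusted p = 0.103, and -0.98 with 0.00875 without untreated replicate 3).

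Krt42 stayed between 4.82 and 5.35 on all 9 arrays, with differences of -0.15 ± 0.13 at day 4 (adjusted p = 0.319) and 0.00 ± 0.13 at day 7 (adjusted p = 0.993). Krt88 read 4.16 on every array but day 7 replicate 2, where it read 4.31, and passed no test.

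Among the 31 keratins that were not tested, 26 lay below 4 on every array. The hair keratins were all in this range, none of them above 3.47 on any array. With no filter on dim genes, the hair keratin Krt36 was called higher at day 4 (0.66, adjusted p = 0.0108). It was called lower at day 7 than at day 4 (-0.59, adjusted p = 0.0446). Krt15 was called lower at day 4 (-0.43, adjusted p = 0.0424) and at day 7 (-0.47, adjusted p = 0.0367). Both genes stayed below the detection level throughout. The remaining 5 of the 31 reached 4 on at least 1 array, all of them untreated. Krt1, the type II partner of Krt10, read 5.80, 6.35 and 4.00 in untreated samples (the last just under 4), 2.88, 2.86 and 2.62 at day 4, and 2.62, 2.33 and 2.55 at day 7. Krt1 was thus at least 2.61-fold lower at both times, with no adjusted p because it missed the filter by that array. With no filter on dim genes it was called lower at day 4 (-2.60, adjusted p = 0.0118) and at day 7 (-2.88, adjusted p = 0.0105).

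Krt6b, a further wound keratin, read 5.06, 5.50 and 3.76 in untreated samples, 2.83, 3.94 and 3.82 at day 4, and 2.28, 2.37 and 2.37 at day 7, which made it at least 1.71-fold lower at day 7. Its day 4 arrays overlapped the untreated ones, and with no filter it was called at day 7 (-2.43, adjusted p = 0.0121) but not at day 4. Krt4, a type II keratin of the mucosa of the mouth and oesophagus, read 4.43, 4.95 and 3.52 in untreated samples, 3.17, 3.12 and 3.12 at day 4, and 2.76, 3.17 and 3.06 at day 7, or at least 1.23-fold lower at both times, without overlap. With no filter Krt4 was called at day 4 (-1.17, adjusted p = 0.0373) and at day 7 (-1.31, adjusted p = 0.0303). This Krt4 probe set is of a kind whose probes can also match related sequences. A second, dimmer Krt4 probe set read 2.28, 3.31 and 2.28 in untreated samples and 2.29, 2.28 and 2.28 at day 4, with overlap. In Krt6b and Krt4, read by the brightest probe set, untreated replicate 3 was the lowest untreated array and itself below the detection level. Krt222 and Krt24, by the brightest probe set, exceeded 4 on untreated replicate 2 alone, at 4.74 and 4.49. The second Krt222 probe set exceeded 4 on untreated replicates 1 and 2, at 4.01 and 4.45. It differed by -0.49 at day 4 and -0.70 at day 7.

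Unequal change between keratin classes was examined within arrays, which removes any factor that scales all genes of an array alike. Krt5 minus Krt8 was 1.46 larger at day 4 than in untreated samples, and without overlap, whereas at day 7 it was 0.16 larger and the groups overlapped. Krt14 minus Krt18 was 1.49 smaller at day 4 (-1.49) and 1.85 smaller at day 7 (-1.85). Krt10 also lost against the basal keratin Krt14, by -0.58 at day 4 and -0.85 at day 7, and against Krt18, by -2.06 and -2.70. Each of these pairs was separated without overlap except Krt5 minus Krt8 at day 7.

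Between day 7 and day 4, the pair difference changed by -1.30 for Krt5 minus Krt8, -0.36 for Krt14 minus Krt18, -0.27 for Krt10 minus Krt14 and -0.63 for Krt10 minus Krt18. The exact two-sided permutation test of 3 against 3 arrays gave p = 0.1, the smallest it can give, for 10 of the 12 tests, p = 0.2 for Krt10 minus Krt14 at day 7 against day 4 and p = 0.7 for Krt5 minus Krt8 at day 7. After adjustment over the 12 tests the smallest was 0.12, so the design could not pass a threshold of 0.05 here. Krt1 minus Krt5 was not run because Krt1 was not tested.

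**Figure D3:**
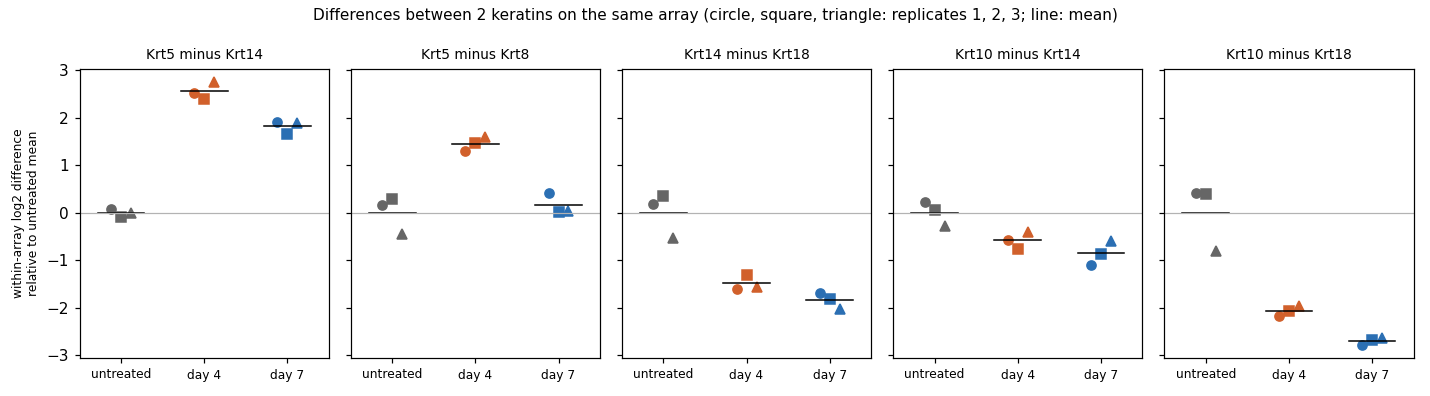
Difference between 2 keratins on the same array, on the log2 scale and relative to the mean of the untreated arrays (y axis), by group on the x axis; points are arrays and lines are group means. Krt5 minus Krt14 shifts by 2.57 at day 4 and 1.83 at day 7, while Krt10 minus Krt18 shifts by -2.06 and -2.70.

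The untreated arrays varied widely in their keratins. Untreated replicate 3 was the lowest untreated array in 14 of the 17 keratins and in 42.2% of all tested genes, and replicate 2 was the highest in 13 of 17 and in 46.0% of all tested genes. The median SD among untreated arrays was 0.43 over the keratins and 0.18 over all tested genes, compared with 0.10 and 0.13 at day 4 and 0.15 and 0.11 at day 7. Relative to the mean of untreated replicates 1 and 2, replicate 3 was lower by a median of -0.70 over the keratins and -0.04 over all tested genes.

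Among the keratins lower at day 7, replicate 3 stood at -1.84 for Krt77, -1.76 for Krt20, -1.63 for Krt16, -1.19 for Krt79 and -1.10 for Krt10. Krt14 stood at -0.69, Krt17 at -0.53, Krt6a at -0.96, Krt78 at -0.83 and Krt23 at -1.03. Of the keratins higher at day 7, Krt5 (-0.70) and Krt19 (-0.37) were also low in replicate 3, whereas Krt8 stood at -0.01 and Krt18 at 0.11. Krt7, which was not called at day 7, stood at -0.53. Without this array, 15 of the 17 keratins were called at day 4 (4 higher and 11 lower) in place of 8, where 60.7% of all tested genes were called in the same fit. At day 7, 14 were called as with it (49.6% of all tested genes), and between day 7 and day 4, 8 were called (1 higher and 7 lower) in place of 3 (31.5% of all tested genes). The same array was lowest in the mean of the cornified envelope list (6.93, against 8.26 and 8.37 in the other untreated samples) and of the medullary list (6.82, against 7.83 and 8.10). It was highest for endothelial genes (6.05, against 4.13 and 4.35). The part of these in the keratin values of replicate 3 was not tested.

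**Figure D4:**
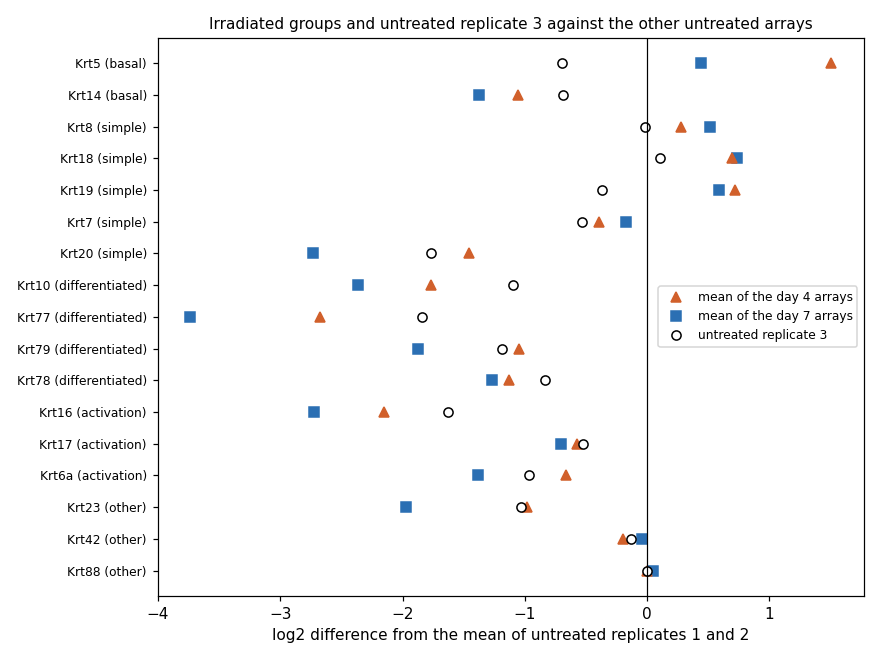
Log2 difference from the mean of untreated replicates 1 and 2 (x axis) for each tested keratin (y axis): filled triangles are the mean of the day 4 arrays, filled squares the mean of the day 7 arrays and open circles untreated replicate 3. Replicate 3 lies left of 0 by 1.84 for Krt77 (-1.84) and at -0.01 for Krt8.

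Genes that work with the keratins were examined as lists, whose counts stand beside the share of all tested genes called higher (41.8% at day 4 and 32.1% at day 7) and lower (21.4% and 22.0%). Of 16 tested genes of the desmosomes, hemidesmosomes and linkers to which keratin filaments attach, 8 were higher and 1 lower at day 4, and 5 were higher and 3 lower at day 7, so that the share of higher genes at day 7 was no larger than that of all tested genes. The median differences were 0.42 and 0.13, and those of all tested genes 0.20 and 0.09. The desmosomal cadherins Dsc3 (1.27 at day 4 with adjusted p = 1.13e-05, 1.02 at day 7 with 8.84e-05) and Dsc2 (1.0 with 3.19e-04, 0.89 with 9.38e-04) and plakoglobin, Jup (1.31 with 9.17e-06, 0.84 with 2.12e-04), which ties cadherins to the filaments, were higher at both times. Col17a1, a hemidesmosome collagen, was lower at day 7 (-1.74, adjusted p = 9.41e-04). Between day 7 and day 4, 0 of the 16 were higher and 5 lower, where 9.78% of all tested genes were higher and 17.6% lower.

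Most tested genes of the cornified envelope, the protein shell of keratinising cells, were lower after irradiation, like the tested differentiated keratins. Of 15 listed genes with a probe set, 8 passed the filter. Among these 8, 0 were higher and 7 lower at day 4 and 0 were higher and 8 lower at day 7, with medians of -1.43 and -2.04. Lor and Ivl reached 4 on all 3 untreated arrays, on 1 day 4 array and on 0 day 7 arrays. They passed the filter only through the untreated group, where they are high. The counts and medians therefore do not stand for the whole list. Flg, whose product bundles keratin filaments, averaged 4.31 ± 0.21 at day 4 and 6.62 ± 0.52 in untreated samples (SD, n = 3 each; -2.31, adjusted p = 9.64e-05), and at day 7 it was below the detection level, at least 6.14-fold lower (adjusted p = 4.84e-05). Calm4, a calmodulin-like protein of differentiated skin (-3.43, adjusted p = 1.93e-04), Krtdap, a secreted protein of differentiating keratinocytes (-2.67, adjusted p = 2.97e-04), and Sprr1a, an envelope precursor (-2.02, adjusted p = 9.15e-04), were lower at day 7. As with Krt10, untreated replicate 3 was the lowest untreated array in the mean of this list, and it was higher than every irradiated array.

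General epithelial genes other than keratins were set beside the family. Their mean over 11 tested genes was 8.21 ± 0.37 in untreated samples, 8.69 ± 0.16 at day 4 and 8.07 ± 0.04 at day 7 (SD, n = 3 each). At day 4, 6 were higher and 0 lower, and at day 7, 1 was higher and 2 were lower. Grhl2, an epithelial transcription factor, was higher at day 4 (1.36, adjusted p = 1.92e-05) and at day 7 (0.80, adjusted p = 6.31e-04), and Epcam, an epithelial adhesion protein, differed by -0.11 (adjusted p = 0.657) and -0.40 (adjusted p = 0.115). Spint2, an epithelial protease inhibitor (-0.69, adjusted p = 0.00334), and Rab25, an epithelial trafficking protein (-1.26, adjusted p = 0.0108), were lower at day 7. When each array was centred on these genes, Krt5 was higher at day 4 (1.26) and at day 7 (0.81), and Krt10 lower (-1.88 and -1.86), with both genes past the threshold at both times.

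Markers of the cortical and the medullary epithelium were counted separately. Of 8 cortical genes, 3 were higher and 0 lower at day 4, a share of higher genes no larger than the 41.8% of all tested genes, and 5 were higher and 0 lower at day 7, where 32.1% of all tested genes were higher. Those higher at day 7 included Dll4 (1.82), the Notch ligand that instructs T cell fate, Psmb11 (0.80), the thymoproteasome subunit, Foxn1 (0.85), the thymic epithelial regulator, and Ly75 (0.48), a cortical endocytic receptor. All 7 tested endothelial genes were also higher at day 7 (median 2.72), and the part of endothelial cells in the Dll4 difference was not tested. Of 6 medullary genes, 0 were higher and 2 lower at day 4, and 0 were higher and 6 lower at day 7, where 22.0% of all tested genes were lower. Among them were Aire (-1.97), which drives the display of tissue antigens, Spib (-1.84), a transcription factor, Tnfrsf11a (-1.93), the receptor RANK, and Cldn4, a tight junction protein at least 1.88-fold lower. Without untreated replicate 3, 4 of the 6 were lower at day 4, where 2371 of all 10937 tested genes were lower.

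Regulators of squamous epithelium did not follow one direction. Of 7 tested, 3 were higher and 0 lower at day 4, and 2 were higher and 2 lower at day 7. Trp63, the regulator of basal cells that activates Krt5 and Krt14 in skin, was higher at both times (0.49, adjusted p = 0.0181, and 0.71, adjusted p = 0.00394), and Klf4, a regulator of the skin barrier, was higher at day 7 (0.85, adjusted p = 0.0137). Ehf (-1.68, adjusted p = 0.00341) and Elf3 (-0.70, adjusted p = 0.0279), both epithelial factors of the Ets family, were lower at day 7. Without untreated replicate 3 the count at day 4 was 2 higher and 1 lower, against 4263 higher and 2371 lower among all 10937 tested genes.

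Filament genes other than keratins were higher for the most part. Of 6 tested, 4 were higher and 1 lower at both times, with medians of 0.88 and 1.03. Vim, the filament of mesenchymal cells (0.65 at day 4, 1.07 at day 7), Synm, a muscle and stromal filament protein (1.51 and 1.20), and Lmna, a nuclear lamin (1.28 and 0.98), passed at both times. Nes, a filament of progenitor and vascular cells, was below the detection level in untreated samples and at least 2.03-fold higher at day 7 (adjusted p = 2.42e-04). The lower gene was Lmnb1, another nuclear lamin, at -3.62 for day 4 (adjusted p = 1.79e-04) and -1.42 for day 7 (adjusted p = 0.0293).

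**Figure D5:**
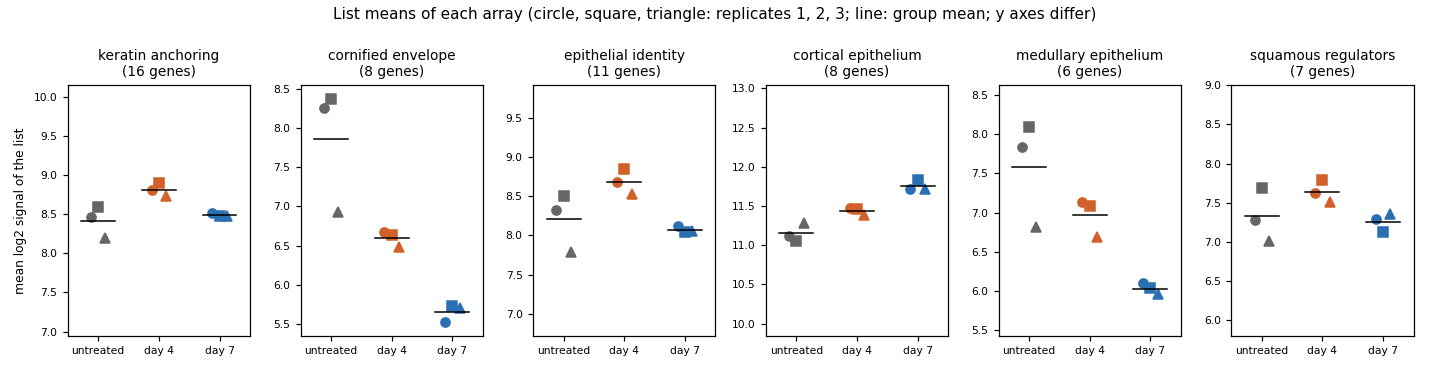
Mean log2 signal of the tested genes of 6 lists (y axis, scale differs between panels) on each array, by group on the x axis; points are arrays and lines are group means. Cornified envelope and medullary means are lowest at day 7, at 5.53 to 5.73 and 5.96 to 6.10, while the cortical mean is highest there, at 11.71 to 11.83.

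RNA quality moved with the groups. The 3′ probe set of Actb exceeded its 5′ probe set by 2.28 ± 0.15 in untreated samples, 3.13 ± 0.17 at day 4 and 2.51 ± 0.21 at day 7 (log2; SD, n = 3 each), and that of Gapdh by 0.90 ± 0.13, 1.37 ± 0.24 and 0.90 ± 0.21 in untreated, day 4 and day 7 samples. Its part in the keratin differences was not tested.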

How the data were processed

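The authors deposited 1 table of log2 values, with 45101 probe sets on 9 arrays, normalized with GCRMA, as the submitters' processing notes name it. GCRMA's version was not given in the sources used here, and the log2 base was inferred from the values. GCRMA corrects background by probe sequence, normalizes the arrays together and summarises the probes of a set. No further normalization was applied. Of the probe sets, 64 were controls, 34945 named 1 gene symbol, 932 several and 9160 none, and 34741 matched RefSeq by gene identifier, which updated 0 symbols. The brightest single-symbol probe set stood for each of 18193 genes, and the 10937 genes that reached 4 on 3 or more of the 9 arrays were tested. Where no array of a group reached 4, the fold is a bound computed from 4.

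One model, with no covariate beside the group, was fitted with limma 3.58.1 (lmFit, eBayes) in R 4.3.3 and adjusted by Benjamini-Hochberg at 0.05, after the script was tested on simulated data. Differences between 2 keratins were compared with an exact permutation test. Promoters were read from the RefSeq table with Python 3.11.15, and plots were drawn with matplotlib 3.10.9. Having only 3 arrays per group limits the precision. Alternatives were no filter, a level of 6, the mean of a gene's probe sets, quantile normalization, centring on 11 epithelial genes or on all tested genes, array weights, an intensity trend, a replicate block and leaving out each array. Every keratin that passed the filter is named. Of each other list, up to 4 genes with the smallest adjusted p at day 7 against untreated are named. Lor, Ivl and Lmnb1 are named beside these. The members and lists were chosen with earlier results of these data known.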

Additional observations from a re-analysis of the deposited data

How the results depend on the processing

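Each group had 3 pooled samples, untreated replicate 3 stood apart from the other untreated samples, and keratins near the detection level carry compressed differences. At day 7 against untreated samples the count of keratins called was 12 to 14 under every alternative run with the same genes and all arrays, and 7 of 8 tested keratins at the stricter level of 6. Those alternatives called 38.5% to 65.9% of all tested genes, and the level of 6 called 57.9%. With no filter on dim genes, the day 7 calls of Krt5, Krt78, Krt6a and Krt17 were lost. The dim keratins Krt1, Krt15, Krt4 and Krt6b were called there instead, and 29.8% of all genes were called. Leaving out 1 array gave 8 to 15 called keratins for day 4 against untreated, 11 to 14 for day 7 against untreated and 1 to 8 for day 7 against day 4. The shares of all tested genes called in those fits were 55.7% to 63.8%, 43.5% to 56.3% and 16.1% to 31.7%. Array weights gave 14 at day 4 (71.7% of all tested genes) and 8 for day 7 against day 4 (40.8%). Quantile normalization gave 1 for day 7 against day 4 (23.8%). The main fit called 63.2% at day 4 and 27.3% for day 7 against day 4.

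Centring on the epithelial list moved the median of all genes by -0.48 at day 4, 0.14 at day 7 and 0.61 between day 7 and day 4. All genes then split into 1404 higher and 3550 lower at day 4 (4574 and 2342 as deposited), 2943 and 1265 at day 7 (3509 and 2406), and 4721 and 254 for day 7 against day 4 (1070 and 1921). Of the keratins, 13 were called at day 4 (1 higher and 12 lower, 5 of them shared with the uncentred fit) and 5 for day 7 against day 4 (5 higher and 0 lower, 1 shared). Differences that turned sign there were Krt8 at day 4 (-0.20) and, for day 7 against day 4, Krt10 (0.017), Krt14 (0.29), Krt16 (0.045), Krt17 (0.48), Krt19 (0.48) and Krt78 (0.47). Centring on all tested genes moved their median by -0.11 at day 4.

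Other sign changes were in differences close to 0 at day 7 against untreated samples. Krt7 was -0.015 under quantile normalization, -0.028 with all-gene centring and -0.025 with array weights, and Krt42 was -0.034 with all-gene centring. Leaving out 1 array gave -0.17 to 0.16 for Krt7, -0.061 to 0.071 for Krt42 and -0.069 to 0.31 for Krt5 minus Krt8.

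Same-numbered samples did not deviate together: correlations of their deviations from the group means were 0.11, -0.04 and 0.18 between day 4 and untreated samples, 0.02, 0.13 and 0.02 between day 7 and untreated samples, and 0.01, -0.04 and -0.12 between day 7 and day 4, so the numbers were not taken as pairs. With the replicate number as a block, 11 keratins were called at day 4, 14 at day 7 and 4 for day 7 against day 4. Of all tested genes, 61.0%, 51.1% and 23.9% were called in that fit. The cause of each change was not tested.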
